A study of Mus musculus with 48 samples.

Results

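Gene expression was compared between the cortex and the hippocampus of wild-type (WT) mice that drank plain water, the untreated control animals of a study on MSX-3, a water-soluble prodrug that blocks the adenosine receptor encoded by Adora2a. The mice were male littermates of APP/PS1 mice, a C57Bl6/J line carrying the APPswe and PS1dE9 transgenes of familial Alzheimer's disease, and carried neither transgene. They were killed at 9 to 10 months of age. The series holds 48 arrays from 24 mice in 8 groups: each tissue was taken from WT and from APP/PS1 mice that drank water or MSX-3 (0.3 g/L). All arrays with the labels WT and water were taken, which gave 6 of each tissue, and both tissues of a mouse were joined by the mouse number in the sample title. The cortex array of mouse 310 was left out because the scanner software had not found its grid, so 11 of the 48 arrays were used, 5 of cortex (mice 56, 71, 258, 308 and 318) and 6 of hippocampus (the same mice and mouse 310). Mouse 310 then has no pair and carries no weight in the difference between tissues. Each sample was total RNA of a dissected tissue block with all its cell types, from mice perfused with saline, hybridised with 1 dye (Cy3) to a whole-genome array of 60-mer probes.

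The 11 arrays were close to each other in signal and correlation, but not in spots marked as outliers. These numbered 559 on the hippocampus array of mouse 56 and 56 to 178 on each of the others. The 75th percentile of the signal lay between 654 and 1080 in cortex and between 654 and 913 in hippocampus. Between 67.5% and 72.1% of spots were well above background in cortex, against 64.2% to 73.3% in hippocampus. The median correlation of an array with the others of its tissue was 0.975 to 0.983 in cortex and 0.976 to 0.982 in hippocampus. The cortex array left out had a 75th percentile of 4.18 and a median correlation of 0.0121. The arrays lay on 5 slides, 2 of which held both tissues, and no pair shared a slide; only the pair of mouse 56 was scanned on 1 day. Values below are log2 levels relative to the 75th percentile of each array (0 is that percentile), and a difference is cortex minus hippocampus on this scale, fitted within mice and given with its standard error (SE). Cortex levels are listed in the order of mice 56, 71, 258, 308 and 318, and hippocampus levels as lowest, median and highest of 6. A probe was called where limma's Benjamini-Hochberg adjusted p was under 0.05 and the fold change at least 1.5. Levels of different probes are not compared with each other, because probes differ in how strongly they bind.

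The cerebral cortex and the hippocampus are neighbouring parts of the forebrain that are built from related excitatory neurons but laid out differently. The neocortex is stacked in layers, with neurons of the upper layers linking cortical areas and those of the deep layers projecting out of the cortex. The hippocampus holds granule cells in the dentate gyrus and pyramidal cells in the fields CA1, CA2 and CA3, which pass signals along a chain that is central to spatial memory. Both tissues also hold inhibitory interneurons, astrocytes, oligodendrocytes, microglia and blood vessels. The hippocampus lies against the choroid plexus and the ependyma of the ventricle, and the cortex against the meninges and, below its white matter, the striatum.

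Of 38474 probes tested, 5421 (14.1%) were called, 2819 (7.33%) with cortex higher and 2602 (6.76%) with hippocampus higher. The median difference over all tested probes was -0.05. Most calls were separate array by array: in 4738 of the 5421 called probes no cortex array overlapped a hippocampus array, where 7477 (19.4%) of all tested probes showed no overlap. The difference exceeded 4-fold in 423 probes in each direction, and 10-fold in 75 probes with cortex higher and 95 with hippocampus higher. Of the called probes, 144 were not well above background on any cortex array and 180 on no hippocampus array, and for these the fold change is given as a lower bound. The bound holds only for the background correction used here. With other processing, differences fell below it: the smallest log2 difference was 2.47 for Gm10635, -3.51 for Dsp and 0.59 for Foxp2. Differences of dim probes also depended on the background correction: with normexp, which fits and removes the background and adds an offset, 43 of the 145 called genes given here by values had a difference smaller by over 1.5 times in fold, 25 of them genes that were not well above background on every array. In bulk tissue, fewer cells of a type and less RNA per cell cannot be told apart, here and in every result that follows. Taking 1 probe per named gene, 2775 of 16837 genes were called (16.5%), 1509 with cortex higher (8.96%) and 1266 with hippocampus higher (7.52%), and the median difference was -0.02; in 4138 genes (24.6%) the arrays of the tissues did not overlap. The counts for each gene list are read against these shares. Leaving out single mice gave 3979 (without mouse 71) to 5628 (without mouse 258) called probes. Within the slide that held 3 cortex and 3 hippocampus arrays of different mice, 6011 probes were called. Within the scan days, again without pairing, the counts were 2371 (2 against 2 arrays) and 5289 (3 against 4 arrays). The second shared slide held 1 array of each tissue, too few for a value.

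**Figure D1:**
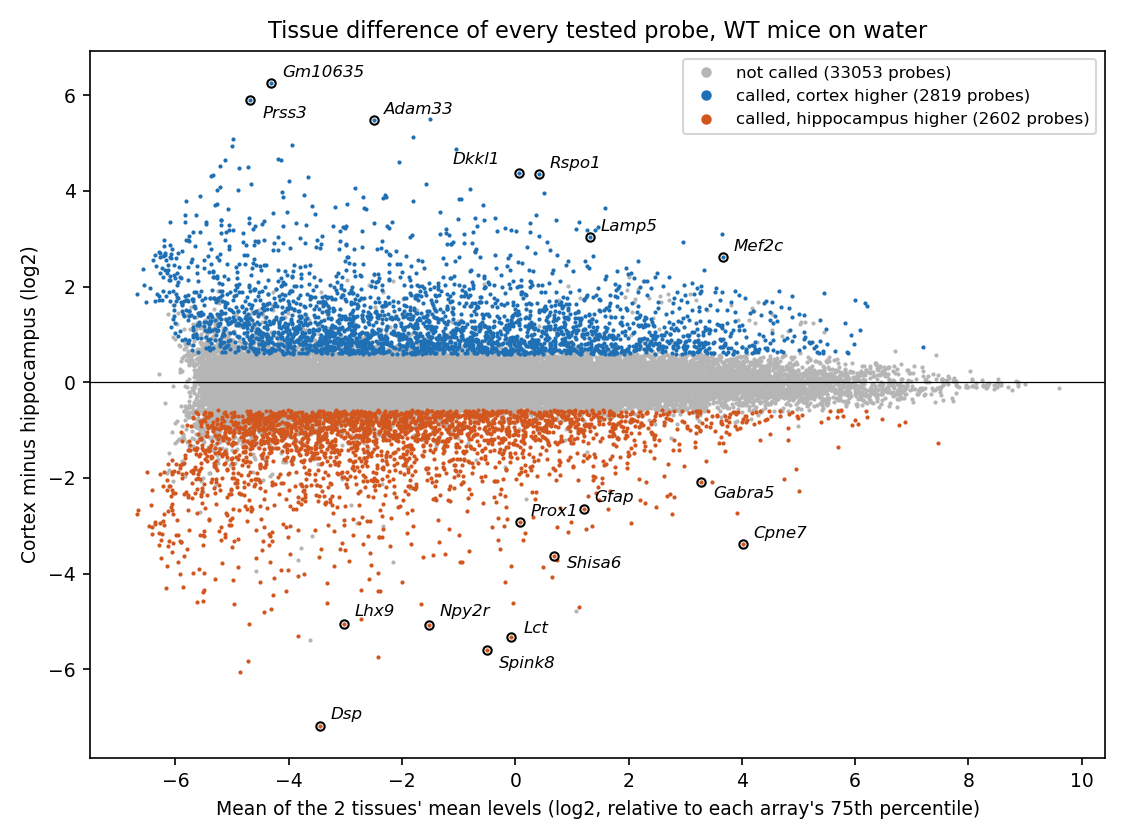
Cortex minus hippocampus difference (log2, vertical axis) of each of the 38474 tested probes against the mean of the tissues' mean levels (log2, relative to the 75th percentile of each array, horizontal axis), in WT mice on water. Blue points are the 2819 probes called with cortex higher, orange points the 2602 called with hippocampus higher and grey points the rest; named points are genes of the text, with Dsp lowest and Gm10635 highest.

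The largest difference of a named gene among probes without overlap had hippocampus higher. Dsp, which encodes the desmosomal linker desmoplakin and marks dentate granule cells, was -7.54, -7.29, -6.19, -6.92 and -7.36 in cortex, not well above background on any array, and -0.24, 0.06 and 0.88 in hippocampus. The lowest hippocampus array lay far above the highest cortex array, and the level was at least 61.2-fold higher in hippocampus (adjusted p = 0.000109, limma; the bound sets the lowest signal well above background in place of a dimmer cortex value). Lct, the gene of the enzyme lactase and another marker of granule cells, was -2.79, -2.42, -2.66, -2.90 and -2.92 in cortex and 2.22, 2.52 and 3.15 in hippocampus, a difference of -5.33 ± 0.18 (40.2-fold, adjusted p = 9.48e-05). All cortex arrays were low and close together. The promoters of these 2 genes are shown because their probes carried the widest separation among the dentate markers. Each is the RefSeq sequence of assembly GRCm38.p6 from 250 bases before to 50 bases after the annotated start, read 5′ to 3′ on the strand of the gene: Dsp at chr13:38151044-38151343 (+ strand) and Lct at chr1:128328269-128328568 (- strand).
Dsp: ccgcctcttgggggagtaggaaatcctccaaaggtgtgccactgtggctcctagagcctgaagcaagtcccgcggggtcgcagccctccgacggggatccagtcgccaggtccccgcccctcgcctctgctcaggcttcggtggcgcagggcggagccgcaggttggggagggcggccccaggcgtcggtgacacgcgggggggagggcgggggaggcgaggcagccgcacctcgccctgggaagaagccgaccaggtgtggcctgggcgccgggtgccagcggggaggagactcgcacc
Lct: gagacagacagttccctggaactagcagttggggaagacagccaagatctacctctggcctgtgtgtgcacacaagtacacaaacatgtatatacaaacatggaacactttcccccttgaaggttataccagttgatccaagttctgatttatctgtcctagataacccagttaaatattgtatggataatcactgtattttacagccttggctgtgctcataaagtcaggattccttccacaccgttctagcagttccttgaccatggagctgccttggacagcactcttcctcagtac
A search for the TATA box letters TATAAA and the cyclic AMP response element TGACGTCA, each on both strands, found neither in these stretches. Among the 10722 tested genes with a single promoter entry, 9.48% held TATAAA and 3.02% held TGACGTCA.

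Granule cell markers were called with hippocampus higher in 9 of 16 tested genes and with cortex higher in 0 of 16 (1 at an unadjusted p under 0.05, limma), and the median difference of the list was -1.87. Prox1, the transcription factor that specifies granule cells, was -1.30, -1.34, -1.58, -1.65 and -1.10 in cortex and 1.30, 1.52 and 2.02 in hippocampus, a 7.58-fold difference (-2.92 ± 0.12, adjusted p = 0.000107, limma). The tissues did not overlap and differed the same way in 5 of 5 mice. C1ql2, which encodes a secreted synaptic protein of the mossy fibres, differed by -4.36 ± 0.37 (20.6-fold, adjusted p = 0.000682). Zbtb20, a transcription factor of developing hippocampal neurons, differed by -2.62 ± 0.10 and Dock10 by -2.13 ± 0.13. Tdo2, the tryptophan-degrading dioxygenase, differed by -2.06 ± 0.18, and the remaining calls were Glis3 and Pcdh8. Neurod1, a transcription factor of newborn granule cells, was not called (-1.01 ± 0.34, adjusted p = 0.1). Pdzd2 ran the other way without a call (0.73 ± 0.20, adjusted p = 0.0509), while another of its 3 probes was called with cortex higher; without mouse 310, the array with no weight in the difference, 1 gene of this list was called with cortex higher.

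Markers of CA1 pyramidal cells were called with hippocampus higher in 6 of 10 tested genes and with cortex higher in 0 of 10 (1 at an unadjusted p under 0.05, limma; median -1.59). Spink8, a serine protease inhibitor gene, was -4.12, -2.69, -3.24, -3.12 and -3.44 in cortex and 1.83, 2.46 and 2.67 in hippocampus (-5.59 ± 0.28, 48.2-fold, adjusted p = 0.000144, limma). Fibcd1, which encodes a chitin-binding receptor, was -4.34, -3.75, -4.07, -4.37 and -4.18 in cortex and -0.52, 0.22 and 0.56 in hippocampus (-4.19 ± 0.19, 18.2-fold, adjusted p = 0.000128). In both genes every hippocampus array was above every cortex array. Lefty1 differed by -3.83 ± 0.17 over 4 pairs, because spots marked as outliers were left out, and Ndst4 by -3.41 ± 0.31 (-1.39 with normexp), with 2 of 5 cortex arrays well above background. Man1a and Gpr161 made up the remaining calls. Wfs1, a CA1 gene of the endoplasmic reticulum, was not called (-0.31 ± 0.23, adjusted p = 0.436).

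CA2 markers were called with hippocampus higher in 6 of 10 genes and with cortex higher in 2 (median -1.06). Ntf3, the neurotrophin-3 gene, was -3.47, -3.11, -2.89, -2.99 and -3.79 in cortex and 0.21, 0.28 and 0.69 in hippocampus, a 12.2-fold difference (-3.61 ± 0.21, adjusted p = 0.000216, limma). Amigo2, an adhesion gene, differed by -2.27 ± 0.29, Necab2, a calcium-binding protein gene, by -1.95 ± 0.17 and Rgs14, a regulator of G protein signalling, by -1.48 ± 0.16. Pcp4, a calmodulin-binding protein gene that deep cortical neurons also express, was called the other way (0.88 ± 0.12, adjusted p = 0.00416). Ptpn5, a phosphatase gene, was likewise higher in cortex (0.98 ± 0.15, adjusted p = 0.00565).

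CA3 markers were called with hippocampus higher in 5 of 11 tested genes and with cortex higher in 2 (median -0.61). Cpne7, a calcium-dependent membrane-binding protein gene, was 1.84, 2.74, 2.10, 2.37 and 2.42 in cortex and 5.13, 5.85 and 6.02 in hippocampus (-3.39 ± 0.20, 10.5-fold, adjusted p = 0.000231, limma). Tgfb2, the transforming growth factor beta 2 gene, differed by -3.02 ± 0.16 and the kainate receptor gene Grik4 by -1.58 ± 0.14. Coch, the cochlin gene, was the largest exception of the hippocampal lists, at -0.23, -0.52, -0.27, -0.23 and -0.35 in cortex and -5.58, -4.09 and -3.07 in hippocampus (3.91 ± 0.44, 15-fold, adjusted p = 0.00187). The cortex arrays were tightly grouped and all above the hippocampus arrays, of which 5 of 6 were well above background. Kcnq5 was called with cortex higher (0.88 ± 0.19), a call lost without mouse 318, 56 or 71, which left 1 gene on that side.

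**Figure D2:**
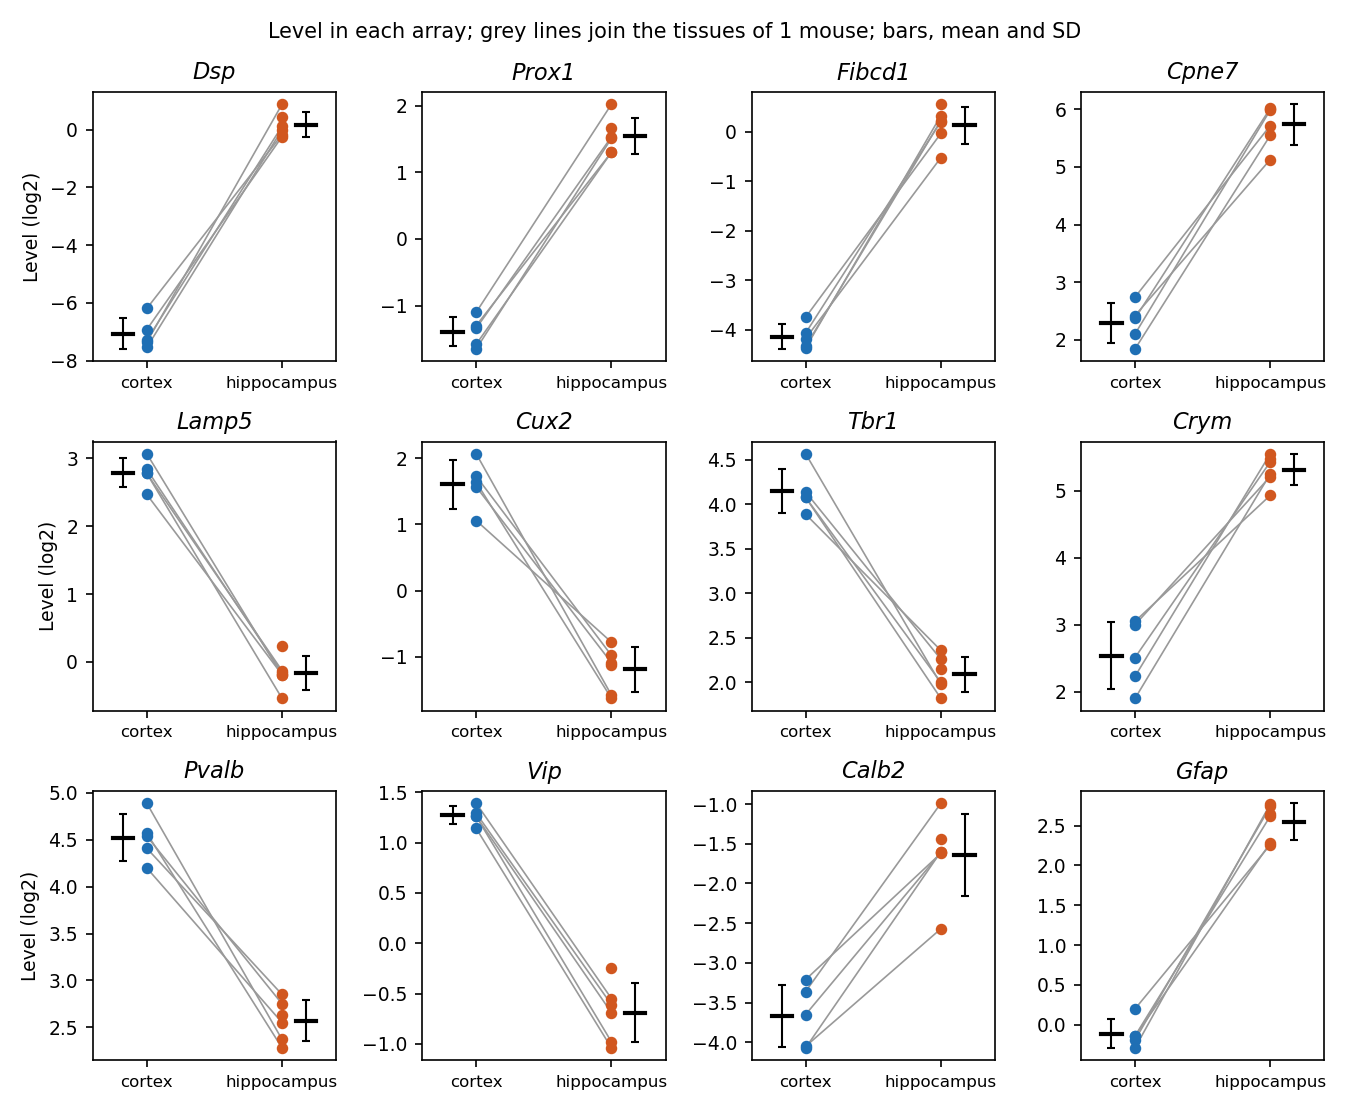
Level of 12 genes (log2, relative to the 75th percentile of each array, vertical axes) in cortex (blue) and hippocampus (orange); points are arrays, grey lines join the tissues of 1 mouse, and bars give mean and SD (5 cortex, 6 hippocampus arrays). Dsp, Prox1, Fibcd1, Cpne7, Crym, Calb2 and Gfap lie higher in hippocampus and Lamp5, Cux2, Tbr1, Pvalb and Vip higher in cortex, with no overlap between tissues in any panel.

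Outside the lists of hippocampal fields, the largest hippocampus calls included Npy2r, the Y2 receptor for neuropeptide Y, which was -4.30, -3.68, -3.76, -4.19 and -4.33 in cortex and 0.87, 0.97 and 1.15 in hippocampus (-5.07 ± 0.18, 33.5-fold, adjusted p = 9.48e-05, limma). Its hippocampus arrays spanned a narrow range far above the cortex arrays. Lhx9, a LIM-homeodomain transcription factor, differed by -5.06 ± 0.18 (-2.82 with normexp), with 2 of 5 cortex arrays well above background, and Tspan18, a tetraspanin gene, by -4.62 ± 0.21. Chst9, a sulfotransferase gene, was at least 5.7-fold higher in hippocampus, and the uncharacterised transcripts Gm34466 and B230110G15Rik differed by -4.94 ± 0.53 and by at least 12.4-fold. Kl and Sostdc1, also among the 12 named genes with the largest differences on this side, belong to the choroid plexus list and are described with it.

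Among the 12 named genes with the largest differences in favour of cortex, Gm10635, a predicted gene, was -1.18, -0.83, -1.25, -1.96 and -0.70 in cortex and -7.70, -7.48 and -6.88 in hippocampus, where no array was well above background. It was at least 20.2-fold higher in cortex with the background correction used (adjusted p = 9.48e-05, limma). This bound and those below do not hold for other processing, where the log2 difference of Gm10635 was as small as 2.47. Prss3, a trypsinogen-type protease gene, was at least 14.3-fold and Gm5771 at least 13.2-fold higher; both belong to a family of near-identical trypsinogen genes, so which member the probes measured is uncertain. Hes3, a transcriptional repressor of neural progenitors, was at least 7.83-fold, Ovol2, a zinc finger transcription factor, at least 7.89-fold, C030013G03Rik at least 8.01-fold and Gm30687 at least 12.8-fold higher. Adam33, a metalloprotease gene, differed by 5.48 ± 0.49 (3.30 with normexp; 3 of 6 hippocampus arrays well above background, all 4 of its probes called the same way). Dkkl1, a gene of the dickkopf-like family, was 2.48, 2.35, 1.85, 2.08 and 2.41 in cortex and -2.81, -1.92 and -1.74 in hippocampus (4.38 ± 0.25, 20.8-fold, adjusted p = 0.000199). Rspo1, a secreted enhancer of Wnt signalling, was 2.93, 1.86, 2.66, 2.93 and 2.36 in cortex and -2.25, -1.72 and -1.22 in hippocampus (4.35 ± 0.25, 20.4-fold, adjusted p = 0.000216). Both genes separated the tissues in every mouse. Gm13601 and Gm765 completed the set, with 1 of 6 hippocampus arrays well above background for each, so the size of their differences is uncertain: Gm13601 was at 4.96 ± 0.36 and at 2.27 with normexp, and Gm765 at 4.49 ± 0.17 and at 1.46 with normexp.

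Markers of the upper cortical layers were called with cortex higher in 7 of 9 tested genes and with hippocampus higher in 0 of 9 (also 0 at an unadjusted p under 0.05, limma; median 1.74). Lamp5, a lysosome-associated membrane protein gene, was 2.84, 2.78, 3.07, 2.78 and 2.47 in cortex and -0.54, -0.17 and 0.23 in hippocampus (3.03 ± 0.14, 8.17-fold, adjusted p = 0.000121, limma). Its arrays did not overlap between tissues. Cux2 and Cux1, homeodomain factors of upper-layer neurons, differed by 2.82 ± 0.26 and 1.74 ± 0.16, and Mef2c, an activity-regulated transcription factor, by 2.61 ± 0.18. Rasgrf2, an exchange factor for Ras, differed by 1.02 ± 0.12. Unc5d, a netrin receptor gene, differed by 1.31 ± 0.25 with 2 of 6 hippocampus arrays well above background, a call lost without mouse 318 (adjusted p = 0.0512) and with normexp (0.35, adjusted p = 0.0902). Lmo4 missed the thresholds (0.38 ± 0.11, adjusted p = 0.0551), and Calb1, the calbindin gene that dentate granule cells also express, was at 0.05 ± 0.13 (adjusted p = 0.844).

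Markers of the deep layers and the claustrum did not move as 1 group: 7 of 20 were called with cortex higher and 4 with hippocampus higher (median 0.26). Tbr1, a transcription factor of corticothalamic neurons, was 4.08, 4.08, 4.57, 3.89 and 4.14 in cortex and 1.82, 2.08 and 2.36 in hippocampus (2.07 ± 0.17, 4.2-fold, adjusted p = 0.000576, limma). Foxp2, a forkhead factor of the deepest layer, was not well above background on any hippocampus array and at least 2.55-fold higher in cortex, and Deptor, an inhibitor of mTOR, differed by 2.02 ± 0.14. Oprk1 (1.42 ± 0.35), Cplx3 (1.40 ± 0.34), Tshz2 (1.15 ± 0.16) and Rprm (0.68 ± 0.17) were the other calls on this side. Tshz2 overlapped between tissues, with the hippocampus array of mouse 310 (-0.99) above all cortex arrays, and was not called without the pairing of mice (0.81, adjusted p = 0.176, limma), with slide as a block (0.33) or within the slide that held 3 arrays of each tissue (0.18). Crym, a thyroid hormone-binding protein gene, was the largest on the other side, at 1.90, 3.0, 2.51, 2.23 and 3.05 in cortex and 4.93, 5.34 and 5.55 in hippocampus (-2.74 ± 0.25, 6.66-fold, adjusted p = 0.000883). The 5 cortex arrays of Crym spread over more than 1 log2 unit, all below hippocampus. Hs3st4 (-1.31 ± 0.19), Nr4a2 (-1.02 ± 0.22) and Ntng2 (-0.82 ± 0.20) were also higher in hippocampus. Fezf2, which specifies neurons projecting below the cortex, was not called (0.21 ± 0.17, adjusted p = 0.486). The 7 became 4 without mouse 258, 318, 56 or 71, with Oprk1, Cplx3 and Rprm lost each time, and the 4 became 2 without mouse 308 or 56; the Nr4a2 call was also lost without mouse 318 and the Ntng2 call without mouse 258 or 71.

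**Figure D3:**
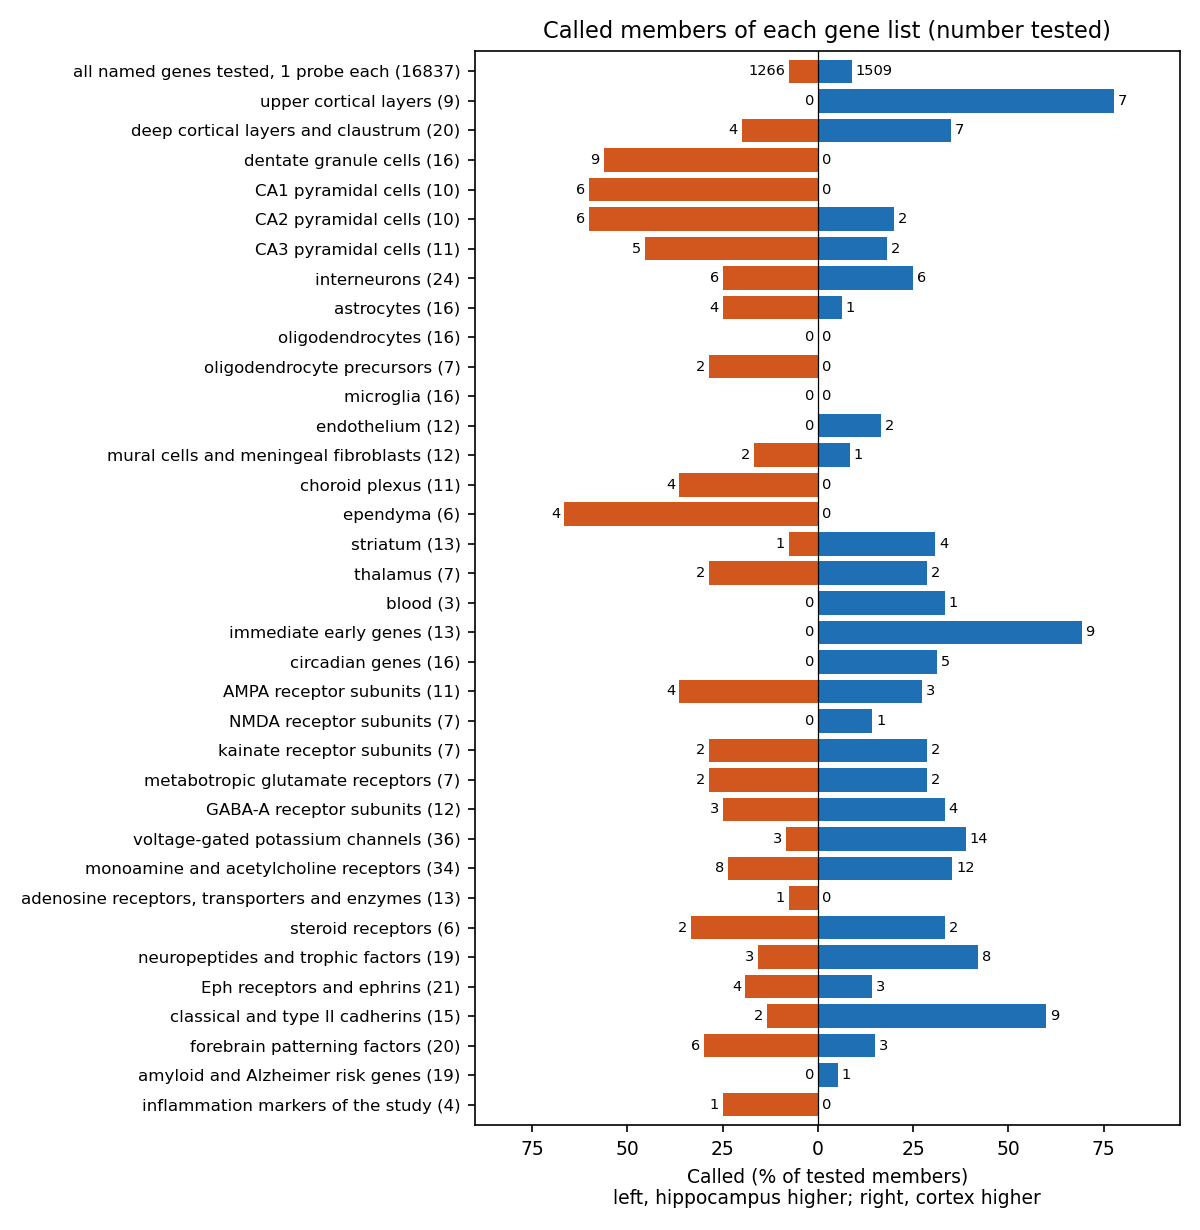
Share of tested members of each gene list called with hippocampus higher (orange, to the left) or cortex higher (blue, to the right), in percent of the number tested, which stands in parentheses; the number called is printed at each bar end. The top bar gives the 16837 named genes, with 8.96% called cortex higher and 7.52% hippocampus higher; the lists of upper layers, cadherins and immediate early genes extend mainly to the right and those of the dentate gyrus, CA1, choroid plexus and ependyma to the left.

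Interneuron genes were called in both directions, with 6 of 24 higher in cortex and 6 higher in hippocampus (median 0.37). Pvalb, the calcium buffer parvalbumin of fast-spiking basket cells, was 4.89, 4.20, 4.41, 4.54 and 4.57 in cortex and 2.28, 2.59 and 2.85 in hippocampus (1.96 ± 0.18, 3.9-fold, adjusted p = 0.000795, limma). Vip, the gene of vasoactive intestinal peptide, was 1.26, 1.26, 1.39, 1.29 and 1.14 in cortex and -1.04, -0.65 and -0.25 in hippocampus (2.04 ± 0.11, 4.12-fold, adjusted p = 0.000184). Both were higher in cortex in 5 of 5 mice without overlap. Crh, corticotropin-releasing hormone, differed by 2.47 ± 0.12, Npy, neuropeptide Y, by 1.16 ± 0.16, and Slc32a1, the vesicular transporter of GABA, by 0.65 ± 0.13; the last call was lost without mouse 318 or 56. Calb2, the calretinin gene, was -4.05, -3.36, -3.65, -3.21 and -4.07 in cortex and -2.57, -1.60 and -0.99 in hippocampus (-1.99 ± 0.18, 3.97-fold, adjusted p = 0.000912). Every hippocampus array of Calb2 lay above every cortex array. Ndnf (-1.46 ± 0.16), Sncg (-1.33 ± 0.16) and Kit (-1.30 ± 0.12) were also higher in hippocampus, with Adarb2 and Htr3a. The GABA-synthesising enzymes Gad1 (0.39 ± 0.15, adjusted p = 0.145) and Gad2 (0.00 ± 0.11, adjusted p = 0.998) were not called, nor was Sst, the somatostatin gene (0.37 ± 0.20, adjusted p = 0.285).

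Transcription factors that pattern the forebrain were called with cortex higher in 3 of 20 genes and with hippocampus higher in 6 (median -0.33). Emx1, a homeodomain factor of the dorsal forebrain, was 0.54, 0.10, 0.16, 0.10 and 0.34 in cortex and -1.37, -0.94 and -0.84 in hippocampus (1.28 ± 0.12, adjusted p = 0.000933, limma). Meis2 differed by 1.04 ± 0.19, a call lost without mouse 71 (adjusted p = 0.0506). Bcl11b, also called Ctip2, which marks both corticospinal neurons and hippocampal neurons, was 0.61, 1.16, 0.43, 0.29 and 1.08 in cortex and 2.08, 2.45 and 2.54 in hippocampus (-1.64 ± 0.21, adjusted p = 0.00314). Nr2f2, the nuclear receptor COUP-TFII of caudal interneurons, differed by -1.68 ± 0.13. In Emx1 and Bcl11b the tissues did not overlap, in opposite directions. Prox1, Zbtb20 and Lhx9 of this list are described above.

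Adhesion and guidance molecules differed member by member. Cadherins, which hold like cells together, were called with cortex higher in 9 of 15 tested genes and with hippocampus higher in 2 (median 0.71). Cdh7 was -1.47, -1.70, -1.54, -1.60 and -1.69 in cortex and -4.98, -4.33 and -3.73 in hippocampus (2.89 ± 0.20, 7.4-fold, adjusted p = 0.000361, limma), and Cdh6 differed by 2.75 ± 0.20. Cdh22, Cdh18, Cdh12, Cdh20, Cdh10, Cdh5 and Cdh4 were the other cortex calls. Cdh9, which guides mossy fibre synapses onto CA3 neurons, differed by -1.85 ± 0.17 over 4 pairs and Cdh8 by -0.81 ± 0.15, both with hippocampus higher. Of 21 Eph receptors and ephrins, the receptors and ligands of contact repulsion, 3 were called with cortex higher and 4 with hippocampus higher (median -0.20). The ligand Efna5 was 3.14, 2.63, 2.67, 2.97 and 2.61 in cortex and -1.27, -0.43 and 0.21 in hippocampus (3.34 ± 0.28, 10.2-fold, adjusted p = 0.000628), with all 3 of its probes called the same way. The receptors Epha6 (-1.98 ± 0.19), Epha7 (-1.72 ± 0.26) and Epha4 (-1.05 ± 0.13) were called in the opposite direction to this ligand.

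Receptors for glutamate, the main excitatory transmitter, were called on both sides in the AMPA, kainate and metabotropic families, although the metabotropic calls with hippocampus higher were all lost without mouse 308 or 318. AMPA receptor subunits and their auxiliary proteins, which carry fast excitation, were called with cortex higher in 3 of 11 and with hippocampus higher in 4 of 11 genes (median -0.41). Gria1, the GluA1 subunit, was 3.98, 4.21, 3.92, 4.05 and 4.08 in cortex and 5.72, 5.90 and 5.95 in hippocampus (-1.82 ± 0.12, 3.52-fold, adjusted p = 0.000268, limma). Shisa6, an auxiliary subunit that keeps receptors in the synapse, was -1.24, -1.10, -0.83, -1.06 and -1.41 in cortex and 2.36, 2.51 and 2.67 in hippocampus (-3.63 ± 0.13, 12.4-fold, adjusted p = 9.48e-05); the second of its 2 probes was not called. All hippocampus arrays of both genes were higher than all cortex arrays. The auxiliary genes Cnih2 (-1.35 ± 0.13) and Cacng8 (-1.33 ± 0.15) ran the same way. Gria4, the GluA4 subunit (1.32 ± 0.23), and the auxiliary genes Cacng3 (1.32 ± 0.14) and Cacng2 were higher in cortex. Gria2, the subunit that limits calcium entry, was not called (-0.41 ± 0.15, adjusted p = 0.12), although its 5 cortex arrays lay below its 6 hippocampus arrays.

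Of 7 NMDA receptor subunits only Grin3b was called (1.03 ± 0.25, adjusted p = 0.0364, limma; list median -0.08), and the call was lost without mouse 308, 318, 56 or 71, while 2 subunits were called without mouse 258. Grin1, the obligate subunit, was at 0.46 ± 0.19 (adjusted p = 0.153), Grin2a at -0.42 ± 0.22 (adjusted p = 0.257) and Grin2b at -0.14 ± 0.28 (adjusted p = 0.793). Of 7 kainate receptor genes 2 were called on each side (median -0.21). Grik3 was 0.48, 1.03, 1.0, 0.33 and 0.93 in cortex and -0.55, -0.30 and -0.10 in hippocampus (1.11 ± 0.16), and its partner Neto2 was also higher in cortex, while Grik4, given with the CA3 markers, and Neto1 (-0.78 ± 0.16) were higher in hippocampus. The cortex count was 1 without mouse 318, 56 or 71, and the Neto1 call was lost without mouse 56. Metabotropic glutamate receptors, which act through G proteins, were called in 2 of 7 on each side (median 0.15). Grm8 (1.91 ± 0.18) and Grm4 were higher in cortex and Grm5 (-0.72 ± 0.16) in hippocampus; the Grm5 call was lost without mouse 258, 308, 318 or 71, and the hippocampus count was 0 without mouse 308 or 318 and 1 without mouse 258 or 71.

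**Figure D4:**
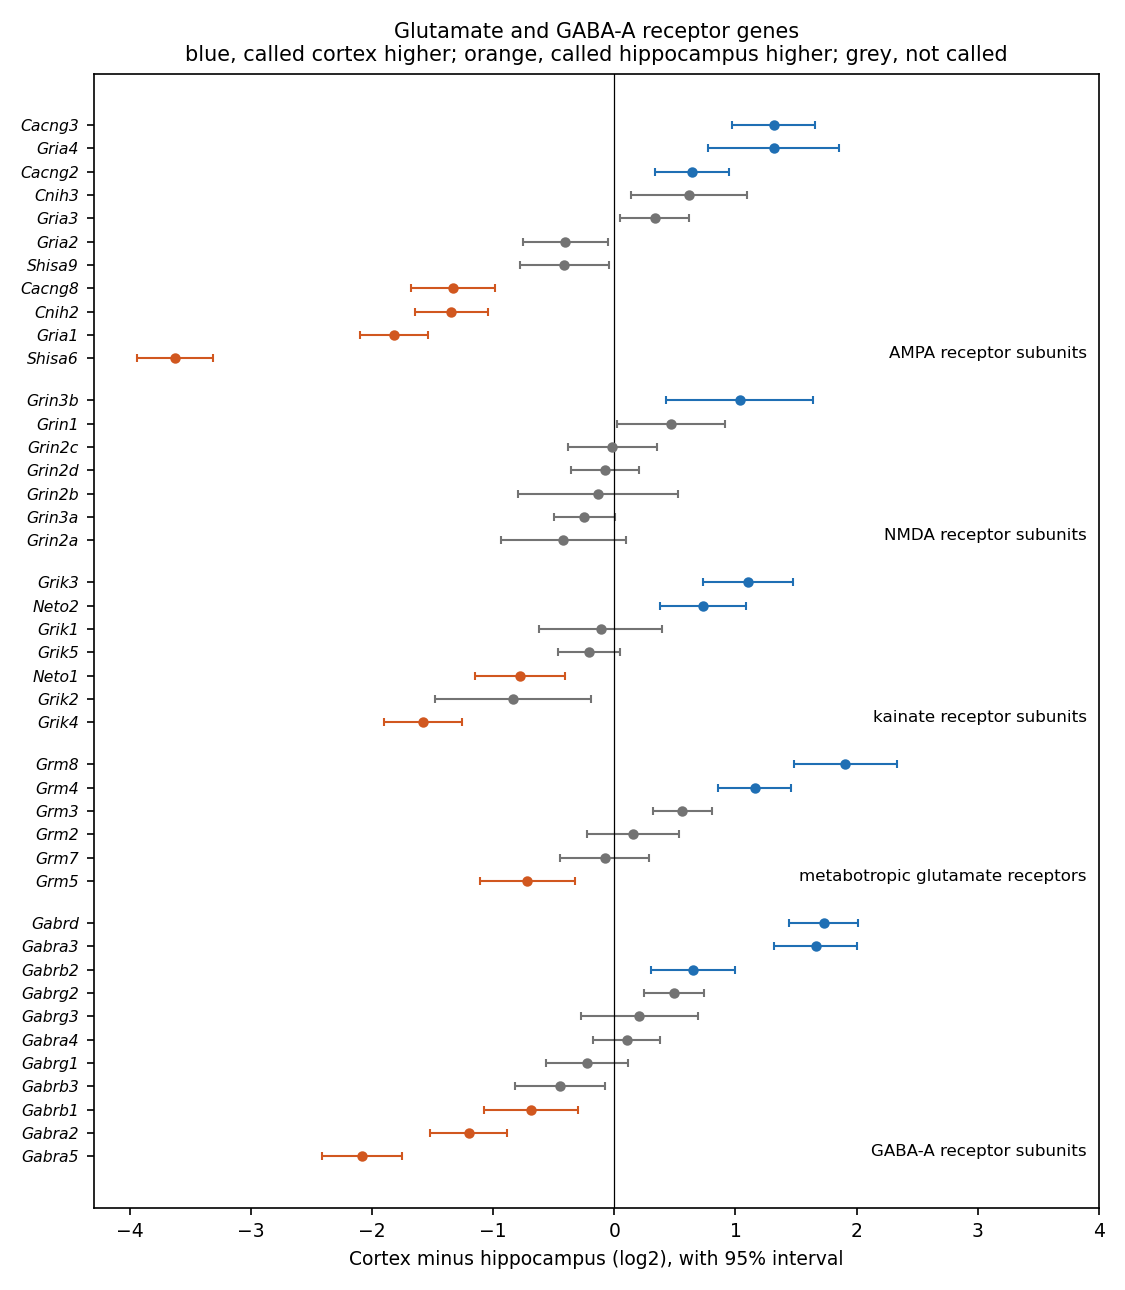
Cortex minus hippocampus difference (log2, horizontal axis) with its 95% interval for genes of the AMPA, NMDA, kainate and metabotropic glutamate receptor families and the GABA-A receptor subunits, in WT mice on water. Blue is called with cortex higher, orange with hippocampus higher and grey not called; Shisa6 (-3.63) lies farthest to the left and Grm8 (1.91) farthest to the right.

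GABA-A receptor subunits, which form the chloride channels of fast inhibition, were called with cortex higher in 4 of 12 and with hippocampus higher in 3 of 12 genes (median 0.15). Gabra5, the alpha 5 subunit, was 2.12, 2.22, 2.53, 2.20 and 2.23 in cortex and 4.08, 4.28 and 4.59 in hippocampus (-2.08 ± 0.14, 4.24-fold, adjusted p = 0.000296, limma). Gabrd, the delta subunit of extrasynaptic receptors, was 3.98, 3.74, 3.71, 3.61 and 3.77 in cortex and 1.91, 2.06 and 2.28 in hippocampus (1.73 ± 0.12, 3.31-fold, adjusted p = 0.000338). The 2 genes separated the tissues fully and in opposite directions. Among the other alpha subunits, Gabra2 was higher in hippocampus (-1.20 ± 0.13), and Gabra3 (1.66 ± 0.14) was higher in cortex. Of the beta subunits, Gabrb1 was higher in hippocampus (-0.69 ± 0.16) and Gabrb2 in cortex (0.65 ± 0.15), the latter by 1 of its 3 probes. The first call was lost without mouse 258, 308, 318 or 56 and the second without mouse 318, 56 or 71.

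Voltage-gated potassium channel genes, which set the shape and rate of action potentials, were called with cortex higher in 14 of 36 tested members and with hippocampus higher in 3 (median 0.41). Kcnh5 was 0.50, 0.04, 0.35, 0.59 and 0.09 in cortex and -2.70, -2.64 and -2.37 in hippocampus (2.89 ± 0.14, 7.44-fold, adjusted p = 0.000145, limma). Kcns1, a modulatory subunit, differed by 1.83 ± 0.13 and Kcna2, an axonal channel, by 1.44 ± 0.13. Neither Kcnh5 nor Kcns1 overlapped between tissues. Kcna4, a channel of the transient A-type current, differed by -0.92 ± 0.12 and its auxiliary subunit Kcnab1 by -0.79 ± 0.12, both with hippocampus higher, and Kcng1 was the third such call.

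Receptors for monoamines and acetylcholine, the targets of the modulatory projections, were called with cortex higher in 12 of 34 tested genes and with hippocampus higher in 8 (median 0.38). Htr4, a serotonin receptor coupled to cyclic AMP, was -4.58, -4.37, -4.50, -5.03 and -4.59 in cortex and -0.71, -0.15 and 0.00 in hippocampus (-4.36 ± 0.17, 20.6-fold, adjusted p = 0.000106, limma), although the second of its 2 probes was not called. Htr5b differed by -3.93 ± 0.27 (-1.54 with normexp), with 1 of 5 cortex arrays well above background, and Drd5, a dopamine receptor of the D1 class, by -2.98 ± 0.23. Chrna7, the alpha 7 nicotinic subunit, differed by -1.41 ± 0.17 and the muscarinic receptor Chrm1 by -0.67 ± 0.12. Htr2c, a serotonin receptor that the choroid plexus also expresses, differed by -1.50 ± 0.29, with overlapping tissues and a call lost without mouse 308 or 71. Adra1b, an alpha 1 adrenergic receptor, was the largest cortex call, at 2.40, 2.49, 2.29, 2.23 and 2.57 in cortex and -1.46, -0.85 and -0.66 in hippocampus (3.39 ± 0.17, 10.5-fold, adjusted p = 0.00015). Chrm2, a muscarinic receptor, differed by 2.17 ± 0.37, with 5 of 6 hippocampus arrays well above background. Over the settings run with the failed array left out, the Chrm2 difference fell as low as 0.85. Htr2a, the serotonin receptor of cortical pyramidal cells, differed by 1.68 ± 0.24.

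Among 19 neuropeptides and trophic factors 8 were called with cortex higher and 3 with hippocampus higher (median 0.37). Adcyap1, the gene of the peptide PACAP, was -0.27, 0.19, 0.34, -0.10 and -0.23 in cortex and -3.68, -2.34 and -2.05 in hippocampus (2.61 ± 0.19, 6.09-fold, adjusted p = 0.000379, limma). Crh, Vip and Npy of the same list are given with the interneurons, and Ntf3 with CA2. Bdnf, the neurotrophin of activity-dependent plasticity, was 0.11, 0.05, 0.06, 0.11 and -0.18 in cortex and 0.16, 0.82 and 0.94 in hippocampus (-0.80 ± 0.12, adjusted p = 0.00635). Of 6 steroid receptors, 2 were called on each side (median 0.19). Nr3c2, the mineralocorticoid receptor, was -1.59, -1.36, -1.76, -1.50 and -1.60 in cortex and 0.72, 0.75 and 1.04 in hippocampus (-2.40 ± 0.12, 5.27-fold, adjusted p = 0.000147). Nr3c1, the glucocorticoid receptor, ran the other way (0.61 ± 0.11, adjusted p = 0.0127), a call made by 1 of its 2 probes and lost without mouse 318 or 71. Pgr was higher in cortex and Esr1 in hippocampus; the hippocampus count of the list was 1 without mouse 308 or 56.

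Immediate early genes, which neurons switch on within minutes of activity, were called with cortex higher in 9 of 13 genes and with hippocampus higher in 0 of 13 (also 0 at an unadjusted p under 0.05, limma; median 1.16). Fos, a subunit of the factor AP-1, was 1.91, 1.19, 0.35, 0.25 and 0.55 in cortex and -1.70, -0.81 and -0.18 in hippocampus (1.63 ± 0.33, 3.08-fold, adjusted p = 0.0194, limma). Dusp1, a phosphatase that turns off MAP kinases, was 2.46, 1.71, 1.51, 1.51 and 1.43 in cortex and -0.24, 0.10 and 0.53 in hippocampus (1.52 ± 0.22, 2.86-fold, adjusted p = 0.00496). In both genes mouse 56 had the highest cortex level, and no cortex array overlapped the hippocampus arrays. Their promoters are shown because 9 of the 13 genes were called the same way and each of the 2 holds 1 of the motifs searched, in capitals: TATAAA starting 33 bases before the Fos start, at chr12:85473640-85473939 (+ strand), and TGACGTCA starting 143 bases before the Dusp1 start, at chr17:26508423-26508722 (- strand), both RefSeq, GRCm38.p6.
Fos: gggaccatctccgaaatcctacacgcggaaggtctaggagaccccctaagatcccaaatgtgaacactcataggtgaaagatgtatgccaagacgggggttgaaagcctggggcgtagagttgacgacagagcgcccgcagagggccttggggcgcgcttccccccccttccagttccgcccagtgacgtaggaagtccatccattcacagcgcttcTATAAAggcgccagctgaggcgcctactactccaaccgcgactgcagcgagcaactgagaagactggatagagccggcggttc
Dusp1: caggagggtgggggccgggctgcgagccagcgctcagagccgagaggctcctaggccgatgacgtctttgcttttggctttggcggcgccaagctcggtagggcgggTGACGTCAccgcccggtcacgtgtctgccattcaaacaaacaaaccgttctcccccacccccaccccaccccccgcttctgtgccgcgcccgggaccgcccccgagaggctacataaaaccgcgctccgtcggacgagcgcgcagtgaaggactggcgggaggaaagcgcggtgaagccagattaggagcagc
Of the 8 genes of the list with a single promoter entry, 2 held TATAAA (Fos and Junb) and 2 held TGACGTCA (Dusp1 and Btg2), which describes these windows and says nothing of binding. Egr1, a zinc finger transcription factor, was 4.11, 3.83, 4.09, 3.95 and 3.63 in cortex and 1.60, 2.24 and 2.57 in hippocampus (1.67 ± 0.13, 3.19-fold, adjusted p = 0.000465). Npas4, induced by calcium entry, differed by 1.51 ± 0.26, Ier2 by 1.49 ± 0.35, Egr2 by 1.45 ± 0.35 and Fosb by 0.93 ± 0.16. Arc, a regulator of AMPA receptor uptake, differed by 1.16 ± 0.30 and Nr4a1 by 1.11 ± 0.25. Junb (0.29 ± 0.18, adjusted p = 0.343) and Btg2 (-0.30 ± 0.27, adjusted p = 0.528) were not called. The 9 became 4 without mouse 318, 56 or 71, as Fos, Ier2, Egr2, Arc and Nr4a1 were lost each time. The summed linear level of the 13 genes was 116, 78.0, 63.8, 62.2 and 65.2 in cortex and 28.1 to 43.1 in hippocampus, so mouse 56 was highest in both tissues.

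Clock genes, whose transcripts cycle over the day, were called with cortex higher in 5 of 16 and with hippocampus higher in 0 of 16 (also 0 at an unadjusted p under 0.05, limma; median 0.51). Npas2, a partner of the core clock factor Arntl, was -3.21, -2.97, -3.26, -3.48 and -3.28 in cortex and -4.72, -4.34 and -3.85 in hippocampus (1.13 ± 0.16, adjusted p = 0.00497, limma). The Npas2 call was lost with normexp. Over the settings run with the failed array left out, the Npas2 difference fell as low as 0.50. Bhlhe40, Hlf, Nr1d1 and Arntl itself were the other calls.

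Astrocyte genes were called with hippocampus higher in 4 of 16 and with cortex higher in 1 (median -0.13). Gfap, the intermediate filament of astrocytes, was -0.29, -0.14, 0.20, -0.14 and -0.19 in cortex and 2.26, 2.63 and 2.77 in hippocampus (-2.64 ± 0.17, 6.25-fold, adjusted p = 0.000272, limma). All hippocampus arrays were more than 2 log2 units above 0 and only 1 cortex array was above 0. Agt, angiotensinogen, differed by -2.01 ± 0.17, Aqp4, the water channel of astrocyte end-feet, by -0.91 ± 0.12 and Id3 by -0.67 ± 0.12, the last lost without mouse 318. Aldh1l1, a folate enzyme used as a general astrocyte marker, ran the other way (0.70 ± 0.14), lost without mouse 318, 56 or 71. None of 16 oligodendrocyte genes was called by limma (median -0.33), where 4 had an unadjusted p under 0.05 on the hippocampus side, and 2 were called with hippocampus higher without mouse 318. The myelin gene Mbp was at -0.49 ± 0.28 (95% interval -1.15 to 0.18, adjusted p = 0.308). Of 7 precursor genes, C1ql1 and Ptprz1 were called with hippocampus higher (median -0.42), and the count was 1 without mouse 258, 308, 318 or 56. None of 16 microglia genes was called by limma (median -0.18), where 2 had an unadjusted p under 0.05 on the hippocampus side and 1 was called without mouse 308. All 16 differences were small and on the hippocampus side, from -0.43 to -0.07. The fractalkine receptor Cx3cr1 was at -0.30 ± 0.10 (adjusted p = 0.102, limma), although its 5 cortex arrays lay below its 6 hippocampus arrays.

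Of 12 endothelial genes, Esam (0.76 ± 0.18) and the cadherin Cdh5 (0.71 ± 0.18) were called with cortex higher (median 0.38); both calls were lost without mouse 258, 308, 56 or 71, while 1 other gene of the list was called without mouse 258 and 1 without mouse 308. Of 12 genes of mural cells and meningeal fibroblasts, Ptgds, a prostaglandin synthase, was higher in cortex (0.98 ± 0.23) and Dcn, decorin, (-1.95 ± 0.52) and Lum in hippocampus (median 0.22). The Ptgds call was lost without mouse 308, 318, 56 or 71, and the Dcn call without mouse 258, 308, 318 or 71. Dcn overlapped between tissues, and in mouse 56 it was higher in cortex (0.70) than in hippocampus (0.28). Haemoglobin transcripts, a sign of blood left after perfusion, summed to between 9.48 and 51.3 in cortex and between 4.69 and 60.9 in hippocampus (linear, 1 is the 75th percentile). Hbb-bt was the 1 called gene of 3; it was lost without mouse 308, 318, 56 or 71, and all 3 were called with cortex higher without mouse 258.

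Markers of the choroid plexus, the tissue that secretes cerebrospinal fluid, split the hippocampus arrays. Their summed linear level was 17.4 to 18.9 in cortex, 186, 279 and 254 in the hippocampus of mice 56, 71 and 258, and 12.2, 8.29 and 7.68 in that of mice 308, 310 and 318. Ttr, transthyretin, was -2.43, -0.49, 0.73, 1.43 and -3.56 in cortex, 7.04, 7.59 and 7.50 in the first 3 hippocampus arrays and -2.07, -1.49 and -0.42 in the others, and was not called (-4.79 ± 1.81, adjusted p = 0.134, limma). Of 11 tested genes 4 were called with hippocampus higher and 0 with cortex higher (median -3.47), and 8 were called without mouse 308. Kl, the anti-ageing hormone klotho, was -4.68, -3.97, -3.23, -3.02 and -4.52 in cortex, 1.20, 1.74 and 1.11 in the first 3 hippocampus arrays and -0.11, -0.40 and -0.21 in the others (-4.63 ± 0.43, adjusted p = 0.00095). For Kl every hippocampus array was above every cortex array, the 3 with low choroid plexus markers included. Sostdc1, a secreted inhibitor of BMP and Wnt signalling, differed by -4.62 ± 0.38 (-2.56 with normexp), with 2 of 5 cortex arrays well above background, and Prlr, the prolactin receptor, by -4.11 ± 0.68, also without overlap. Folr1, a folate receptor, overlapped (-3.38 ± 0.90, adjusted p = 0.0484), and its call was lost without mouse 258, 56 or 71 and without the pairing of mice (-2.65, adjusted p = 0.12). With the hippocampus arrays of mice 56, 71 and 258 left out, 2 of 7 tested genes were called on each side. The part of attached choroid plexus in other hippocampus calls was not tested. With these arrays left out, and with no mouse block, 5278 probes were called, and 4422 of the 5421 reported calls (81.6%) were among them. Of the reported calls 4994 could be tested in that setting, 4990 of them with the same direction. All arrays of that setting also gave the reported calls, so this agreement is not an independent check and says nothing of choroid plexus.

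Ependymal genes, of the ciliated cells that line the ventricles, were called with hippocampus higher in 4 of 6 (median -1.36). Tmem212 was -7.86, -7.48, -7.98, -8.01 and -5.0 in cortex, where 1 of 5 arrays was well above background, and -5.91, -1.42 and -0.61 in hippocampus (-5.83 ± 0.71, adjusted p = 0.0026, limma; -2.59 with normexp). The tissues overlapped at the lowest hippocampus array. Ccdc153 differed by -3.43 ± 0.52, Foxj1, the master factor of motile cilia, by -1.45 ± 0.33, and Rarres2 was the fourth call. Ccdc153 and Foxj1 overlapped as well. In the hippocampus of mouse 310 they were at -3.42 and -3.52, against -5.22 to -2.60 and -3.43 to -2.65 in cortex. The Foxj1 call was lost without mouse 318, 56 or 71, and the count was 2 without mouse 71; without the pairing of mice Foxj1 was at -1.14 (adjusted p = 0.0564, limma) and not called. The summed level of the list was 0.992 to 1.34 in cortex and, for mice 56, 71, 258, 308, 310 and 318, 4.59, 4.46, 3.88, 3.70, 1.09 and 1.88 in hippocampus. Without the hippocampus arrays of mice 56, 71 and 258, none of 5 tested genes was called by limma, nor was any within the slide that held 3 arrays of each tissue.

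**Figure D5:**
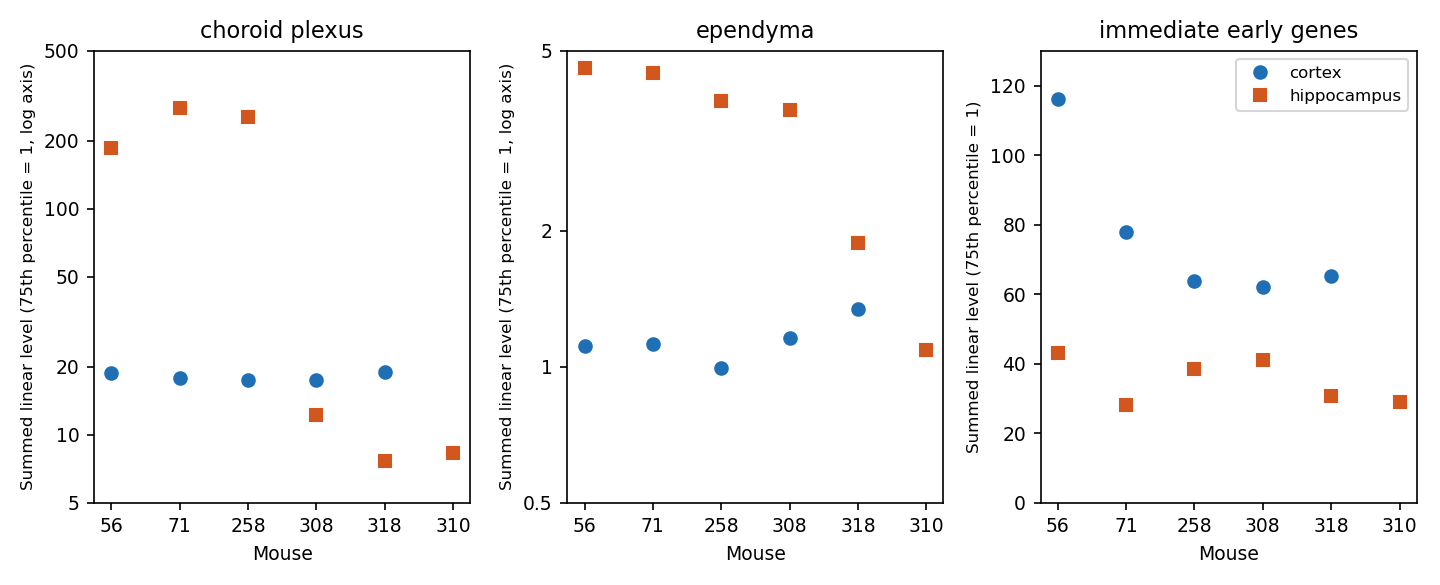
Summed linear level (75th percentile of each array = 1) of the choroid plexus and ependyma lists (log axes) and of the immediate early genes (linear axis) in the cortex (blue circles) and hippocampus (orange squares) array of each mouse; mouse 310 has no cortex array here. The hippocampus of mice 56, 71 and 258 stands at 186 to 279 for choroid plexus genes against 7.68 to 12.2 for the other mice, and all cortex arrays lie above all hippocampus arrays for immediate early genes.

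Genes of the striatum, which lies below the cortex, were called with cortex higher in 4 of 13 and with hippocampus higher in 1 (Syndig1l; median 0.24), and their summed level was 31.3 to 39.1 in cortex and 17.5 to 27.1 in hippocampus. Scn4b, a sodium channel subunit, was 3.0, 2.79, 3.06, 2.54 and 2.91 in cortex and -0.52, -0.38 and -0.05 in hippocampus (3.19 ± 0.14, 9.13-fold, adjusted p = 0.000107, limma). Ppp1r1b and Drd1 (0.68 ± 0.15) were also called with cortex higher, the latter lost without mouse 258, 318, 56 or 71. The cortex also expresses several of these genes. Among the genes of striatopallidal neurons, the dopamine receptor Drd2 was at 0.24 ± 0.26 (adjusted p = 0.603) and the enkephalin gene Penk at 0.08 ± 0.21 (adjusted p = 0.848), and neither was called; the part of striatal tissue in these differences was not tested. Thalamic genes were called in 2 of 7 on each side (median -0.22). Slc17a6, a vesicular glutamate transporter, was higher in cortex (2.44 ± 0.25), as was Rgs16, and Prkcd (-1.85 ± 0.16) and Lhx9 were higher in hippocampus.

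Adora2a, the receptor that MSX-3 blocks, was -2.97, -1.60, -2.88, -3.10 and -2.62 in cortex and -3.53, -3.03 and -1.55 in hippocampus. The arrays of the tissues overlapped, and the difference of 0.20 ± 0.11 (95% interval -0.08 to 0.47) was not called (adjusted p = 0.314, limma). Over the settings run with the failed array left out, the difference ranged from -0.75 to 0.80, wider than this interval. It was 0.66 in WT mice on MSX-3, 0.44 in APP/PS1 mice on water and 0.38 in APP/PS1 mice on MSX-3. Of 13 adenosine receptors, transporters and enzymes only Slc29a4, the plasma membrane monoamine transporter that also carries adenosine, was called (list median -0.08). It was -1.56, -0.97, -1.05, -0.74 and -1.23 in cortex and 2.28, 2.60 and 2.83 in hippocampus (-3.71 ± 0.18, 13.1-fold, adjusted p = 0.000143). Its lowest hippocampus array lay above the highest cortex array by a wide margin. Adora1, the inhibitory A1 receptor, was at -0.13 ± 0.13 (adjusted p = 0.592) by its brightest probe, while 1 of its other 2 probes was called with hippocampus higher. Adk, adenosine kinase, had 1 cortex array far below the rest (mouse 258, at -7.64, against -0.29 to -1.14 in the other 4) and was not called (-1.28 ± 1.08, adjusted p = 0.496).

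Of 19 genes of amyloid processing and Alzheimer risk, Abca7, a lipid transporter, was the 1 call (0.71 ± 0.14, adjusted p = 0.0191, limma; list median -0.03). The call came from 1 of its 2 probes and was lost without mouse 318, 56 or 71. App, the amyloid precursor gene, was 5.97, 5.65, 5.84, 6.09 and 5.88 in cortex and 5.36, 5.62 and 5.85 in hippocampus (0.21 ± 0.10, adjusted p = 0.244), and Prnp, the prion protein gene whose promoter drives the transgenes of the APP/PS1 line, was at -0.13 ± 0.12 (adjusted p = 0.527). Apoe was at -0.30 ± 0.14 (adjusted p = 0.228). Of 4 tested inflammation markers, Gfap was called and Cd68 (-0.03 ± 0.10, adjusted p = 0.872) and Tlr2 (-0.39 ± 0.12, adjusted p = 0.071) were not.

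The same tissue difference was fitted in the other 3 groups, which share no mouse with the WT water group. Of the 5421 called probes, 99.4% had the same direction in WT mice on MSX-3, 99.2% in APP/PS1 mice on water and 99.1% in APP/PS1 mice on MSX-3, and 5326 (98.2%) in all 3. Over all 38474 tested probes the shares with the same direction were 71.8%, 75.2% and 82.4% in that order. Calls in the same direction were made for 82.2%, 78.4% and 80.7% of the 5421 called probes, and for 3627 of them (66.9%) in all 3 groups. In these groups 17.2%, 15.4% and 17.3% of all 38474 tested probes were called. Dsp differed by -6.78, -5.82 and -6.99 in these groups in that order, Lamp5 by 2.92, 2.92 and 2.88, and Gabra5 by -1.90, -2.0 and -1.91. Egr1 differed by 1.45, 1.58 and 1.57 and Fos by 1.56, 1.41 and 1.18. These genes kept their direction in every group. Ttr differed by -2.34, -2.11 and -2.62 and Kl by -4.04, -3.91 and -3.91.

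The tissue difference itself was then compared between groups with an interaction term. Between water and MSX-3 in WT mice, 0 of 38866 probes were called (0%), 1626 had an unadjusted p under 0.05 and the smallest adjusted p was 0.809 (limma). Between WT and APP/PS1 mice on water, 44 of 38634 probes (0.114%) were called, 2 with a larger and 42 with a smaller value of cortex minus hippocampus in WT, and 16 of the 44 were also called between the tissues of WT water mice. Gfap was called, with an interaction of -1.98 ± 0.17 (adjusted p = 0.000735), since cortex minus hippocampus was -2.64 ± 0.17 in WT and -0.67 in APP/PS1 mice on water. Cd68, a lysosomal protein gene of phagocytes, had -0.95 ± 0.11 (adjusted p = 0.00633) and Tlr2, an innate immune receptor gene, -1.21 ± 0.12 (adjusted p = 0.00282). In APP/PS1 mice on water Cd68 differed by 0.92 and Tlr2 by 0.82 between tissues, where neither was called in WT mice. The 44 became 18 to 28 without WT mouse 56, 308 or 318 or without APP/PS1 mouse 81, 255, 259, 261, 323 or 325, and 32 to 46 without WT mouse 71, 258 or 310; Gfap, Cd68 and Tlr2 stayed called without each of them.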

How the data were processed

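Total RNA of dissected cortex and hippocampus was labelled with Cy3 and hybridised to 1-colour Agilent whole-mouse-genome arrays. The deposited files hold the spot intensity that the authors extracted with Agilent Feature Extraction 10.7.3.1 (per the submitters' processing notes); gProcessedSignal is background-corrected and not scaled between arrays. The deposited intensity table of the whole series held the same values. Per the study's methods, the authors scaled to the 75th percentile in GeneSpring, removed dim probes and used a moderated test with Benjamini-Hochberg adjustment and a fold change of 1.5. The microarrays' number limits the precision.

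Here log2(gProcessedSignal) minus the 75th percentile of each array over non-control spots was used. Control spots and outlier-marked spots were left out, spots of 1 probe were averaged, and 38474 of 56605 probes were kept, those marked well above background on 4 or more cortex or 4 or more hippocampus arrays. The test was limma 3.58.1 (R 4.3.3; lmFit and eBayes, two-sided) with mouse as a fixed block. A gene was taken by its kept probe with the highest mean, and its other probes were not always called. Only 1 of 3 probes was called for Gabrb2, Grm5 and Kcnq5. Likewise 1 of 2 was called for Rasgrf2, Neto1, Nr4a2, Ntng2, Folr1 and Ovol2. Gene names are those of the RefSeq gene matched by each probe's transcript identifier. No single RefSeq gene matched 23611 probes, which stay unnamed, and 1645 of these were called. There were 8 genes called in both directions by different probes.

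Named genes are members of the gene lists, the 12 named genes with the largest change in each direction among called probes without overlap, Adora2a, App and Prnp; some of these are not reported here, and counts include them. The members and lists were chosen with earlier results of these data known. Pairing comes from the mouse numbers in the titles: both arrays of a number are 1 animal. The deviations of the 2 arrays of a mouse from their tissue means correlated at -0.455 to -0.136 (5 pairs), against a median of 0.266 between different mice. Promoters were read from RefSeq tables (GRCm38.p6). The code was tested on simulated data. Alternatives covered the block, background correction, scaling, filters, thresholds, weights, slide, scan day, series matrix and single mice.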

Additional observations from a re-analysis of the deposited data

Results flagged for a closer look

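In 15 of 346 groups of arrays (4.34%), 1 array lay apart from the rest of its tissue by Dixon's ratio, about as many as the 1 in 20 that chance flags; 11 were in cortex and 4 in hippocampus. In the cortex of mouse 258 these were Grin2b (0.88), Gabra5 (2.53) and Adk (-7.64). In the cortex of mouse 318 they were Ndnf (-3.25), Tmem212 (-5.00) and Bdnf (-0.18), and in that of mouse 308 Ovol2 (-3.23) and Chrna7 (-3.87). Mouse 56 stood apart in cortex for Tshz2 (-2.29) and Dusp1 (2.46), and mouse 71 for Unc5d (-4.69). In hippocampus they were Ntf3 in mouse 318 (0.69), Drd1 in mouse 310 (-2.15), Adora2a in mouse 71 (-1.55) and Adcyap1 in mouse 56 (-3.68).

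The interaction test of limma between WT and APP/PS1 mice on water called 44 of 38634 probes (0.114%). Among the genes given here by values it called 3: Gfap by -1.98 (adjusted p = 0.000735), Tlr2 by -1.21 (adjusted p = 0.00282) and Cd68 by -0.95 (adjusted p = 0.00633).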

How the results depend on the processing

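The 5421 called probes became 839 with the array left out put back (all 12 arrays), 3047 at a fold of at least 2, 8416 with array weights and 2371 within the first scan day (2 against 2 arrays, chosen after seeing the data). The other settings gave 3630 (normexp) to 6496 (no minimum fold), and leaving out single mice gave 3979 to 5628. All 12 arrays also moved the share of calls with cortex higher from 52.0% to 67.1% and turned Pcp4 to -0.16, Slc32a1 to -0.38, Aldh1l1 to -0.08 and Ptgds to -0.16, none of these 4 past the threshold. Without the replicate block 6156 probes were called and with mouse as a random block 5770. For the interaction with genotype the pairing mattered more: 93 probes without the replicate block and 85 with a random block, against 44. That count was 3 with all 12 arrays, 18 without a filter on dim probes, 162 with array weights, 93 with all 8 groups in 1 fit and 18 to 46 without single mice. The interaction with MSX-3 in WT mice gave 1 probe without a filter and 0 in every other setting run. The share of calls with the same direction in all 3 other groups (98.2%) was 99.9% with normexp, 97.1% without a filter and 99.4% at a fold of at least 2. Of 145 called genes that the text names by values, 88 stayed past the thresholds in every alternative other than all 12 arrays and the higher fold, 114 without each single mouse, and 0 reversed there. The cause of these changes was not tested, apart from the fold minimum, which by construction removes calls. Within-slide, within-day and choroid plexus settings were chosen after seeing the data and had no replicate block. Slide and mouse could not be fitted together. Dim probes near background limit what can be read from the largest folds.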
